A study of Mus musculus with 12 samples.

Results

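The mRNAs of the respiratory chain were followed in tumor-associated macrophages (TAMs) sorted from B16 melanoma tumors. The members were the genes whose symbols named a nuclear subunit of complex I (Nduf), II (Sdh), III (Uqcr) or IV (Cox), or an mRNA of the mitochondrial genome (mt-Nd, mt-Cytb, mt-Co, mt-Atp), with a mean CPM (counts scaled to the library total) of at least 1 in a table. Of the 55401 genes listed, 75 carried such a symbol and 73 passed the CPM limit. They comprised 60 nuclear genes (37 of complex I, 4 of complex II, 8 of complex III and 11 of complex IV) and 13 mitochondrial ones (7 of complex I, 1 of complex III, 3 of complex IV and 2 of complex V). Members were placed by symbol, except Ndufa4, which was placed in complex IV. The 37 of complex I thus include Ndufb4c, a processed pseudogene, and Ndufa4l2, a relative of Ndufa4. All 73 members entered both fits.

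The study asked how TAMs change as a tumor grows and when the energy-sensing kinase AMPK is removed. The first table held 3 WT libraries, from AMPKfl/fl mice, and 3 AMPK-KO libraries, from AMPKfl/flLyz2cre/cre mice, all taken at day 15 according to the methods. The second held 3 Early libraries (day 8) and 3 Late libraries (day 15), from mice labelled WT. All mice were untreated, were 5 weeks old when used according to the methods, and bore subcutaneous B16-F10 tumors. WT and AMPK-KO mice shared the floxed allele. In the AMPK-KO mice, Cre was driven by the lysozyme gene Lyz2, which is active in myeloid cells in general, including neutrophils, so deletion was not limited to TAMs. The genotype field of AMPK-KO-2 and AMPK-KO-3 read Lyz3 and Lyz4 in place of Lyz2, and their titles read Lyz2. Nothing in the labels said that replicates came from separate animals, so p-values measure the spread between these samples only.

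Libraries held 71019494 to 84470374 counts. Prkaa1, which encodes the catalytic AMPK subunit alpha 1, was at 62.8 to 68.8 CPM in WT and 40.8 to 47.0 CPM in AMPK-KO (log2 fold change −0.60 ± 0.07 SE, edgeR adjusted p = 0.000226), so part of its mRNA signal remained. Lyz2 was at 9.16 to 13.5 CPM in both WT and AMPK-KO, but at 1091 to 3008 CPM in the other table, although the WT label names no Cre. The 10 macrophage markers summed to 14693 to 16538 CPM in WT and 13922 to 14506 CPM in AMPK-KO, with none at 0. Every AMPK-KO library was thus below every WT library in this sum. At an edgeR adjusted p under 0.05, 2 of the 10 were higher and 2 lower in AMPK-KO, beside 11.3% and 9.78% of all genes. Their sums were 9910 to 13325 CPM in Early and 12596 to 12752 CPM in Late, where 1 of 10 was higher and 0 lower (4.31% and 4.88% of all genes). The 7 B16 melanoma markers were also present, at 676 to 999 CPM and 766 to 1806 CPM in the respective tables. The 4 Y-linked genes summed to 41.5 to 48.8 CPM in Early and to at most 0.0499 CPM in Late, and to 128 to 153 CPM in WT and AMPK-KO, whereas the methods name female mice, so stage and the sex of the animals cannot be told apart. Because these are bulk samples, fewer cells of a type and less RNA per cell cannot be told apart.

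The respiratory chain passes electrons from NADH (complex I) and succinate (complex II) through complex III to complex IV, which reduces oxygen. Complexes I, III and IV pump protons, and the ATP synthase (complex V) uses the resulting gradient. Complexes I, III, IV and V mix subunits from the nuclear and mitochondrial genomes, whereas complex II is wholly nuclear. In macrophages, respiration is known to change with the activation state, and complex I and II activity has been linked to inflammatory signaling.

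Compared per length of transcript, the mitochondrial mRNAs were the more abundant. On the scale of mean CPM per kilobase in WT, the median was 920 over the 13 mitochondrial mRNAs and 72.5 over the 60 nuclear ones. The highest level was that of mt-Co1, the catalytic subunit of complex IV, at 5206 ± 526 (SD, n = 3). Among the nuclear members, Cox6a1 and Cox4i1, both accessory subunits of complex IV, came first at 397 ± 51.2 and 386 ± 44.3, and they did not differ beyond their spread. Median levels were 59.8 in nuclear complex I, 73.6 in complex II, 95.8 in complex III and 154 in complex IV. The lowest member was Ndufa4l2, a hypoxia-inducible relative of Ndufa4, at 1.53 ± 0.243.

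**Figure D1:**
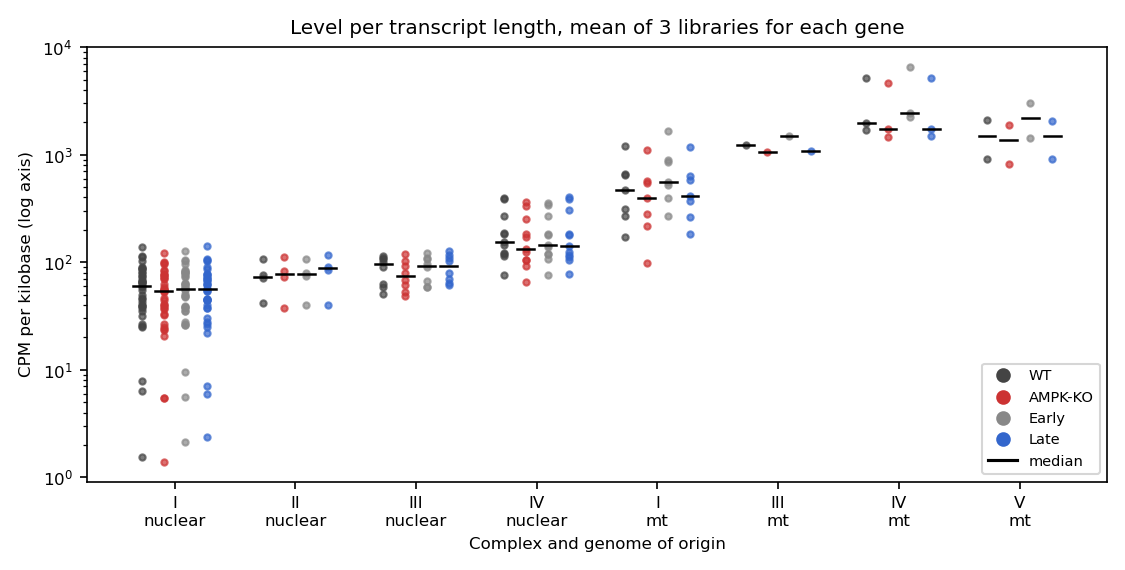
Each point is 1 gene, placed by its mean CPM per kilobase of transcript (log axis) over the 3 libraries of a group, and black bars are medians. Values from the separate tables were normalized apart and are shown side by side. In WT the nuclear medians run from 59.8 in complex I to 154 in complex IV, below the mitochondrial median of 920.

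At the CPM limit, the members just inside were Ndufa4l2, with means of 1.36 and 2.10 CPM in the first and second table, and Ndufb4c, a processed pseudogene, with 2.60 and 3.26 CPM. Just outside were Ndufs6b, at 0.558 and 0.735 CPM, and Ndufa11b, at 0.00454 and 0.0202 CPM, which are processed pseudogenes too.

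Several mitochondrial genes share sequence with each other or with nuclear copies of the mitochondrial genome, which bears on what their counts mean. In mouse GRCm38, mt-Atp8 and mt-Atp6, both membrane subunits of complex V, overlap by 43 bases on the plus strand at chrM:7927-7969, and mt-Nd4l and mt-Nd4, core subunits of complex I, by 7 bases at chrM:10167-10173. On opposite strands, mt-Nd5 and mt-Nd6 overlap by 14 bases at chrM:13552-13565, and mt-Atp6 and mt-Co3 share 1 base on the plus strand. The longest overlap is shown because reads that cover it match both genes, and capitals mark the start codon of mt-Atp6 and the stop codon of mt-Atp8.
mt-Atp8 and mt-Atp6: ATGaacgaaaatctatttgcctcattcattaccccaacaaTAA

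At a minimum of 95% identity over 100 bases, 7 of the 13 mitochondrial members matched a pseudogene elsewhere in the genome with a mean of at least 1 CPM. Mt-Co2, mt-Co3 and mt-Nd4l matched Gm28661, Gm28437 and Gm10222 at 100% identity, and in the first table the copies' mean CPM were 100.1%, 100.4% and 100.3% of those of the members. For mt-Nd4l, the counts of member and copy almost coincided in every library. In WT-1 they were 6033 and 5989, and in Early-3 they were 13847 and 13846. The squared difference over the sum averaged 0.156 in the 12 libraries, where a random split of reads between both loci would average about 1. The other pairs did not coincide within such noise, with averages of 13.1 for mt-Co3, 45.5 for mt-Co2, 50.7 for mt-Nd3 and 68.5 for mt-Atp6, although each copy held 43.1 to 54.0% of the pair's summed counts. For mt-Nd4 and mt-Co1, whose copies held 20.9 to 28.0% and 9.78 to 12.5%, the counts were far apart. How reads that match both loci were assigned is not given in the sources used here, so these copies are not taken as a second measurement. At the same limits, 21 of the 60 nuclear members matched another gene. Those that matched a pseudogene, or for Ndufb4c its parent gene, numbered 9. Among them was Ndufa12, whose copy Gm15920 held 17.8% of its CPM in the first table. A further kind of match was to a gene that overlaps the member, in 8, such as Ndufb2 with Braf. Other genes were matched in 6, such as Cox5b with Gm11273, and a member can have more than 1 kind.

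Between AMPK-KO and WT, 7 of the 73 respiratory chain mRNAs passed the test, all lower in AMPK-KO, and most of the others had small values below 0 that did not pass. Of the 73 members, 65 had a log2 fold change below 0, against 50.5% of the 17532 genes tested. By the edgeR quasi-likelihood test, 7 of 73 were lower at an adjusted p under 0.05 (9.59%), beside 9.78% of all genes tested, and 0 were higher, beside 11.3%. In either direction, 21.1% of all genes were called. The 7 were 5 mitochondrial mRNAs and the nuclear genes Ndufa12 and Ndufa4, and none changed by more than 1 on the log2 scale. At an unadjusted p under 0.05, 23 members were lower (background 16%) and 0 were higher (background 16.6%), and DESeq2 called 15 lower (background 9.7%) and 0 higher (background 10.8%). The share called lower was thus near the background by edgeR's adjusted p and above it at an unadjusted p (31.5% of the 73) and in DESeq2 (20.5%), and the share called higher was below the background in all 3. By edgeR, 2 of 60 nuclear and 5 of 13 mitochondrial members were called. Groups did not overlap for 9 members that were lower (background 18.4%) and 0 that were higher (background 18.8%).

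**Figure D2:**
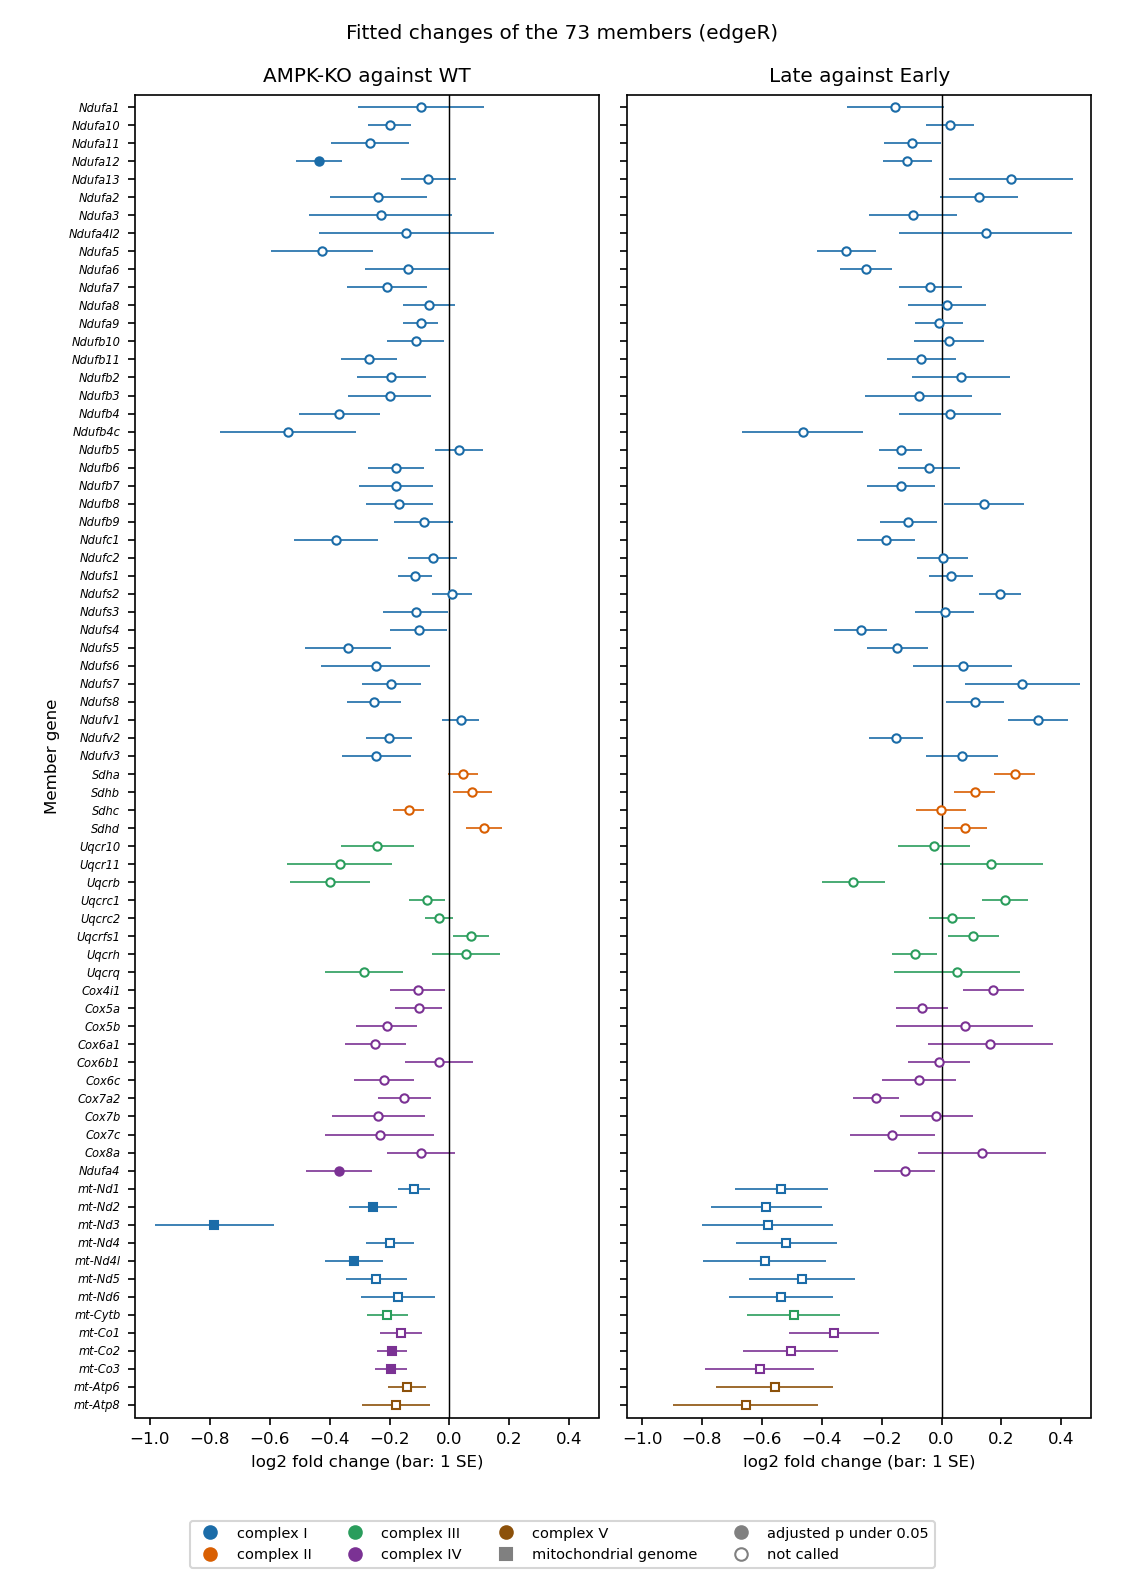
Points give the log2 fold change of each of the 73 members in both comparisons, with bars of 1 SE, circles for nuclear and squares for mitochondrial genes, coloured by complex. Filled symbols mark an adjusted p under 0.05, reached by 7 members in AMPK-KO against WT and 0 in Late against Early, where all 13 squares lie below 0.

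Complex I, which takes electrons from NADH, had the clearest nuclear change. Ndufa12, an accessory subunit of its matrix arm (chr10:94198720-94221443, plus strand), was at 50.6, 60.5 and 54.9 CPM in WT and at 40.8, 38.7 and 43.2 CPM in AMPK-KO. Every AMPK-KO library was below every WT library. It fell by 26.1%, a difference of −0.44 ± 0.08 on the log2 scale with an adjusted p of 0.00261. It stayed past the threshold under every alternative run (adjusted p at most 0.0213), the addition of the copy's counts included. The copy Gm15920 was lower too (−0.66 ± 0.14, adjusted p = 0.00603). It differs from Ndufa12 at 2 of 402 aligned bases, so it is not taken as a second measurement. No other nuclear member of complex I was called. Across the 37, the median was −0.19 and 34 lay below 0. Ndufb4c, whose 390 bases match Ndufb4 exactly, had the lowest value, −0.54 ± 0.23 (adjusted p = 0.128). Its CPM were 2.43, 3.17 and 3.67 in WT and 1.65, 2.38 and 2.34 in AMPK-KO.

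Complex II, the succinate dehydrogenase, was the exception in sign. Its 4 genes had a median of 0.06, and 0 were called by edgeR or DESeq2, with 1 lower at an unadjusted p under 0.05. Sdhc, a membrane anchor, was at 132.5, 134 and 129 CPM in WT and at 116, 118 and 126 CPM in AMPK-KO. These groups did not overlap, but the difference of −0.14 ± 0.05 missed the threshold (adjusted p = 0.0924). Sdhd, the other membrane anchor, had the highest signed log2 fold change of the nuclear members, 0.11 ± 0.06, smaller in size than many of the values below 0 (adjusted p = 0.225), with 87.8, 98.8 and 95.2 CPM in WT and 100, 98.5 and 106.5 CPM in AMPK-KO. Sdha, which holds the flavin, and Sdhb, the iron-sulfur subunit, had log2 fold changes of 0.05 ± 0.05 and 0.08 ± 0.07 (adjusted p = 0.577 and 0.471).

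In complex III, which oxidizes ubiquinol, 0 of 8 nuclear genes were called by edgeR and the median was −0.16. Uqcrb was the 1 gene below an unadjusted p of 0.05 and the 1 called by DESeq2. This accessory subunit had an adjusted p of 0.0607, with a log2 fold change of −0.40 ± 0.13. It was at 39.1, 58.5 and 48.15 CPM in WT and at 32.0, 37.97 and 40.5 CPM in AMPK-KO, so AMPK-KO-3 lay above WT-1.

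Complex IV held the other nuclear change. All 11 of its nuclear genes had values below 0, with a median of −0.21, and only Ndufa4 was called. Ndufa4 (chr6:11900292-11907497, minus strand) was named after complex I but is known as a subunit of complex IV. It was at 59.4, 83.9 and 75.8 CPM in WT and at 56.5, 52.9 and 60.4 CPM in AMPK-KO. WT-1 lay below AMPK-KO-3, so the groups overlapped. The difference was −0.37 ± 0.11 on the log2 scale (adjusted p = 0.0389). Without filtering on low counts the adjusted p was 0.0901, and it missed the threshold when any library other than WT-1 was left out, where it ranged from 0.0556 to 0.158. Its relative Ndufa4l2 was at 1.15, 1.59 and 1.56 CPM in WT and at 0.962, 1.25 and 1.68 CPM in AMPK-KO (adjusted p = 0.787).

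The nuclear members shared 1 pattern across libraries that crossed the groups. Within WT, WT-1 held the lowest CPM for 57 of the 60 nuclear members and WT-2 the highest for 57. Within AMPK-KO, AMPK-KO-1 was lowest for 48 and AMPK-KO-3 highest for 54. Summed over the 60 genes, WT was at 4032, 5135 and 4663 CPM and AMPK-KO at 3889, 4177 and 4557 CPM, and the groups overlapped. The cytosolic ribosomal protein genes, which are also short and abundant, followed the same order in WT, with summed CPM of 30383, 39818 and 35475, and stood at 29784, 31673 and 34948 CPM in AMPK-KO. Their part in the result was not tested. Leaving out WT-1 raised the nuclear members called lower from 2 to 24 of 60, where 10.6% of all genes were called lower, and moved the median from −0.18 to −0.27. Leaving out WT-2 gave 1 call and a median of −0.07, and leaving out AMPK-KO-1 gave 1 call and a median of −0.11. Without WT-3 and without AMPK-KO-2 there was also 1 call. In these 4 fits, 5.87 to 7.21% of all genes were called lower.

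Among the 60 nuclear members, 12 core subunits had a median log2 fold change of −0.05 and 48 accessory ones a median of −0.20. The 37 genes with transcripts shorter than 1000 bases had a median of −0.21, with 36 below 0, and the 23 longer ones had −0.10, with 16 below 0. Across these 60 genes, length and log2 fold change correlated at a Spearman rho of 0.34 (Pearson r = 0.25). These are genes measured in the same 6 libraries and no independent replicates.

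**Figure D3:**
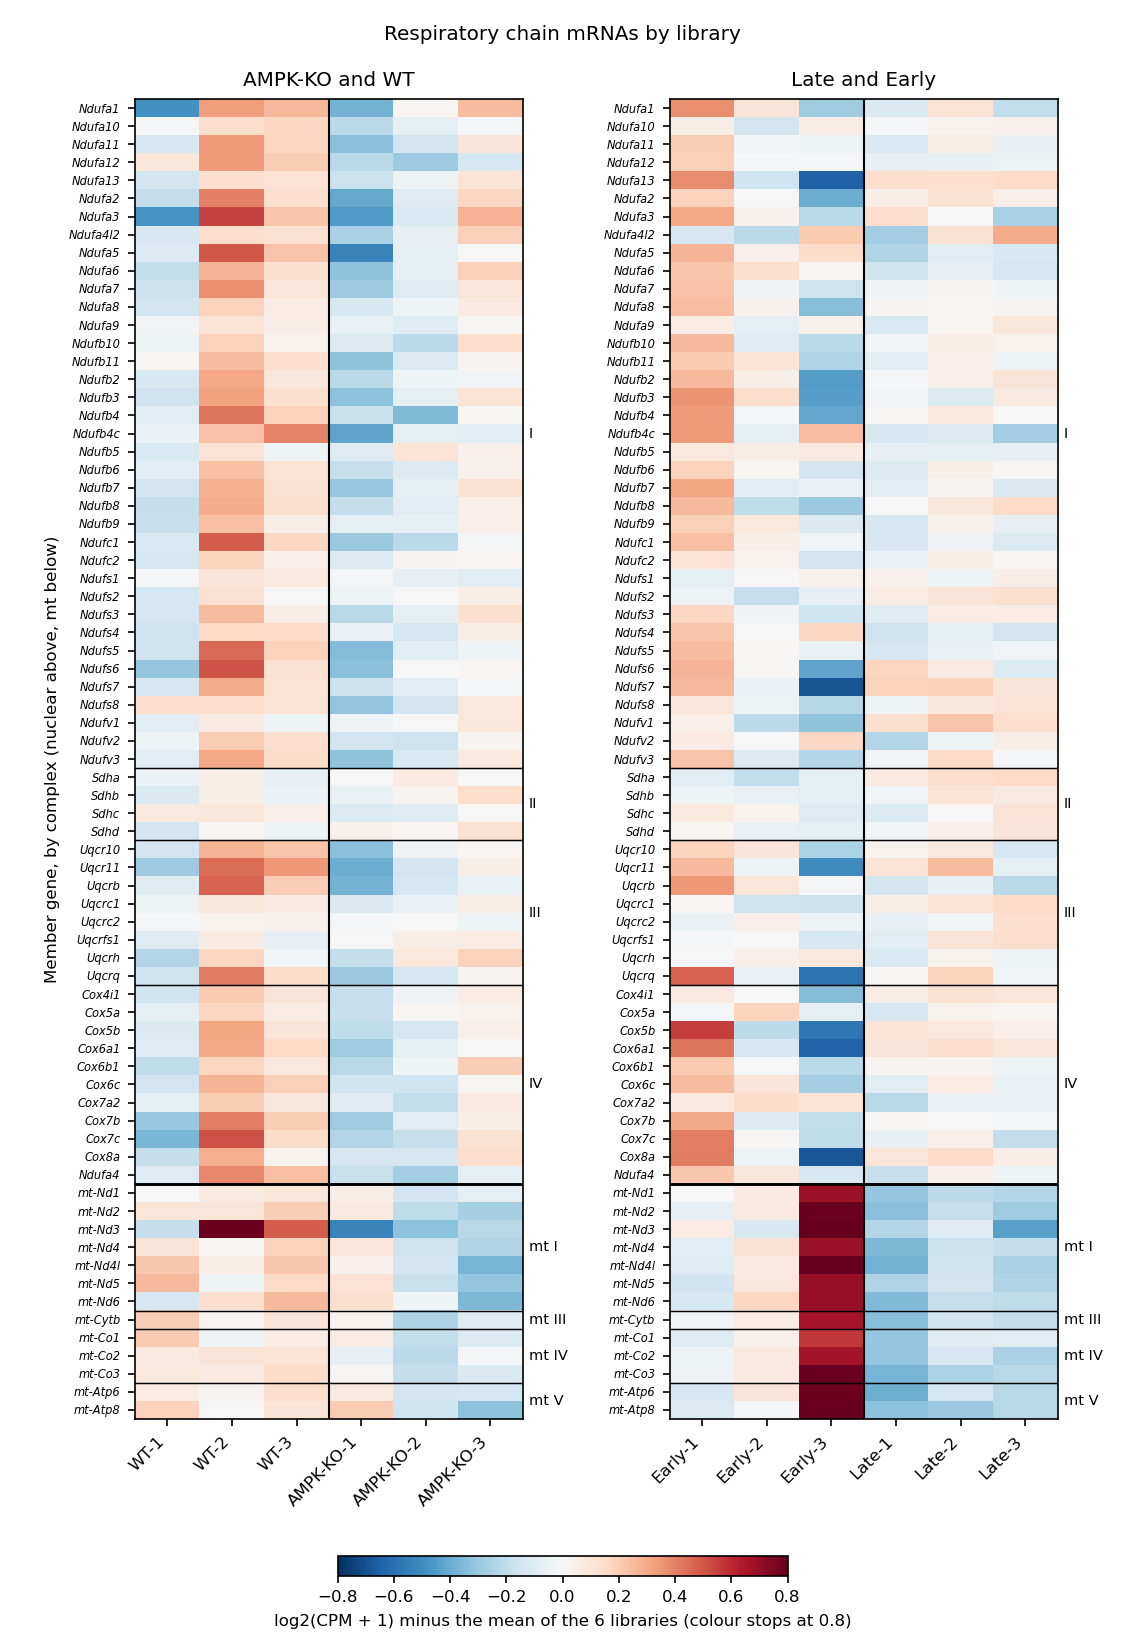
Rows are the 73 members by complex, columns are libraries, and colour gives log2(CPM + 1) minus the mean of the 6 libraries of the table, stopping at 0.8. Most nuclear genes are high in WT-2 and Early-1, and all 13 mitochondrial genes are highest among the Early libraries in Early-3.

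Of the 13 mitochondrial mRNAs, 5 were called lower in AMPK-KO and 8 did not pass. All 13 log2 fold changes lay below 0, with a median of −0.20 and a range of −0.79 to −0.12. Of the 5 that were called, 3 encode core subunits of the membrane arm of complex I. Mt-Nd3 (chrM:9459-9806) was at 38.7, 77.1 and 62.4 CPM in WT and at 30.4, 35.1 and 37.8 CPM in AMPK-KO. WT-1 was close to AMPK-KO-3, although the groups did not overlap. The log2 fold change was −0.79 ± 0.20 (adjusted p = 0.0175). Mt-Nd4l (chrM:9877-10173) was at 83.7, 74.6 and 83.5 CPM in WT and at 74.1, 64.5 and 55.3 CPM in AMPK-KO, a log2 fold change of −0.32 ± 0.10 (adjusted p = 0.0409). Mt-Nd2 (chrM:3914-4951) was at 665, 663 and 713 CPM in WT and at 655, 539 and 517 CPM in AMPK-KO, a log2 fold change of −0.25 ± 0.08 (adjusted p = 0.0453). For both genes, AMPK-KO-1 lay just under the lowest WT library.

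The other 2 called genes encode core subunits of complex IV. Mt-Co2 (chrM:7013-7696), which receives electrons from cytochrome c, was at 1341, 1361 and 1366 CPM in WT and at 1210, 1096 and 1257 CPM in AMPK-KO. Mt-Co3 (chrM:8607-9390) was at 1306, 1293 and 1369 CPM in WT and at 1245, 1081 and 1139 CPM in AMPK-KO. The groups did not overlap for either gene. The log2 fold changes were −0.19 ± 0.05 (adjusted p = 0.0227) and −0.20 ± 0.05 (adjusted p = 0.0262). Mt-Co1 did not pass, at −0.16 ± 0.07 (adjusted p = 0.145). Mt-Cytb, the only complex III member of the mitochondrial genome, came close at −0.21 ± 0.07 (adjusted p = 0.0591). Of the rest, mt-Nd1, mt-Nd4, mt-Nd5, mt-Nd6, mt-Atp6 and mt-Atp8 had values of −0.12, −0.20, −0.24, −0.17, −0.14 and −0.18, with adjusted p from 0.116 to 0.385.

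These calls turned on single libraries. Without WT-3 or without AMPK-KO-2, 0 of the 13 mitochondrial mRNAs were called, against 5 with all libraries, 4 without WT-1, 3 without WT-2, 2 without AMPK-KO-3 and 10 without AMPK-KO-1, while 5.87 to 10.6% of all genes were called lower in these fits. The median stayed below 0 throughout, from −0.28 to −0.15. As a share of all counts, mitochondrial mRNAs made up 1.87, 1.64 and 1.77% in WT and 1.72, 1.45 and 1.51% in AMPK-KO, so AMPK-KO-1 lay above WT-2. Markers of other cells moved with the genotype, in both directions. Their calls stand beside 11.3% of all genes called higher and 9.78% lower. The B16 melanoma markers summed to 998, 998 and 999 CPM in WT and to 716, 708 and 676 CPM in AMPK-KO, and 6 of 7 were called lower. NK cell markers rose in 6 of 6 (18.01 to 21.1 CPM summed in WT, 41.9 to 44.4 in AMPK-KO), T cell markers in 5 of 6 (76.4 to 91.5 and 148 to 156), and fibroblast markers in 5 of 5 (569 to 615 and 739.5 to 819). Dendritic cell markers rose in 5 of 6 (46.3 to 51.6 and 76.9 to 85.3) and endothelial markers in 2 of 4, with 1 lower. Neutrophil markers rose in 3 of the 4 tested, of 7 listed (95.3 to 101.5 and 157.7 to 160.3). B cell markers fell in 4 of 5, with 1 higher (30.9 to 32.4 and 19.9 to 22.1). Their median log2 fold change was −5.01, a larger drop than the sums show. Erythroid markers fell in 4 of the 4 tested, of 5 listed (22.5 to 24.8 and 7.40 to 9.08). The part of all these markers in the changes of the respiratory chain was not tested.

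**Figure D4:**
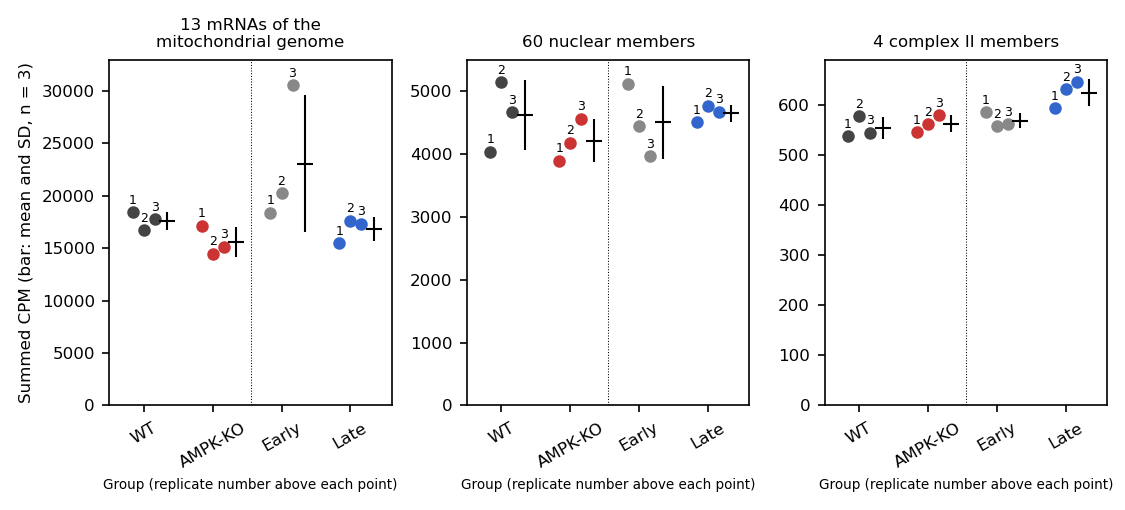
Points give the summed CPM of the 13 mitochondrial mRNAs, the 60 nuclear members and the 4 complex II genes in each library, numbered by replicate, with the mean and SD of each group (n = 3) and a dotted line between the tables. Early-3 has the highest mitochondrial sum, 30556 CPM, and the lowest nuclear sum of the Early libraries, 3960 CPM.

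Between Late and Early, no member passed the threshold. All 13 mitochondrial mRNAs had log2 fold changes below 0, as did 30 of the 60 nuclear members. By edgeR, 0 of 73 members were called higher (background 4.31%) and 0 lower (background 4.88%), where 9.18% of the 17630 genes tested were called in either direction. At an unadjusted p under 0.05, 19 members were lower (background 12.4%), among them all 13 mitochondrial mRNAs, and 4 were higher (background 12%). DESeq2 called 4 members lower (background 8.12%), namely mt-Nd1, mt-Co2, mt-Cytb and Ndufa5, and 2 higher (background 7.54%), namely Sdha and Ndufv1. Groups did not overlap for 19 members that were lower (background 15.6%), 10 of them mitochondrial, and for 5 that were higher (background 15.6%). Since no member was called here, none was called in both comparisons.

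The 13 mitochondrial mRNAs had a median log2 fold change of −0.54 and ranged from −0.65 for mt-Atp8 to −0.36 for mt-Co1, whereas the median over all genes was 0.00. Mt-Nd1, a core subunit of complex I, was at 1328, 1390 and 2135 CPM in Early and at 1070, 1151 and 1130 CPM in Late, a log2 fold change of −0.53 ± 0.16 (adjusted p = 0.0639). Mt-Cytb was at 1422, 1505 and 2276 CPM in Early and at 1138, 1293 and 1264 CPM in Late, a log2 fold change of −0.49 ± 0.16 (adjusted p = 0.083). Mt-Co2 was at 1357, 1472 and 2210 CPM in Early and at 1120, 1271 and 1162 CPM in Late, a log2 fold change of −0.50 ± 0.16 (adjusted p = 0.0808). In each of these genes the groups did not overlap and Early-3 stood well above the other Early libraries.

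Mt-Atp8 showed the widest spread, at 209, 223 and 445 CPM in Early and at 180, 184 and 193 CPM in Late, with a log2 fold change of −0.65 ± 0.24 (adjusted p = 0.127). Mt-Co1 was at 8343, 9155 and 13215 CPM in Early and at 7215, 8344 and 8399 CPM in Late, where Late-3 reached above Early-1. Mt-Nd3 overlapped as well, with 79.1, 69.2 and 137 CPM in Early and 64.3, 70.5 and 55.9 CPM in Late. Its copy Gm28438, which shares all but 1 of 345 aligned bases, was called lower (−0.60 ± 0.14, adjusted p = 0.0269), while mt-Nd3 itself was not (−0.58 ± 0.22, adjusted p = 0.136). The remaining values were −0.59 for mt-Nd2, −0.52 for mt-Nd4, −0.59 for mt-Nd4l, −0.47 for mt-Nd5, −0.54 for mt-Nd6, −0.61 for mt-Co3 and −0.56 for mt-Atp6.

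Early-3 set much of the size of this difference. It held the highest level of all 13 mitochondrial mRNAs among the Early libraries. Mitochondrial mRNAs took 1.80, 2.03 and 3.03% of the counts in Early and 1.58, 1.77 and 1.74% in Late, and Late-2 and Late-3 lay just under Early-1. Mitochondrial rRNAs, at 546, 636 and 1098 CPM in Early and 544.5, 606 and 613 CPM in Late, showed the same high library. The 60 nuclear members went the other way in Early-3, with 5110, 4434 and 3960 CPM in Early and 4497, 4760 and 4668 CPM in Late. Without Early-3, the mitochondrial median was −0.25 in place of −0.54, and 5 of the 13 were called lower (4.76% of all genes in that fit). Without Early-1, which was the lowest Early library for 12 of the 13, the median was −0.70 and 12 were called (7.19% of all genes).

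The nuclear members had a median of 0.00, with 30 of 60 on each side of 0, and both extremes carried complex I symbols. Ndufv1, the core subunit that binds NADH, was the highest, at 67.15, 56.4 and 52.0 CPM in Early and 71.5, 76.6 and 71.6 CPM in Late. Every Late library lay above every Early one, and the log2 fold change was 0.32 ± 0.10 (adjusted p = 0.0764, DESeq2 adjusted p = 0.0271). The lowest was Ndufb4c, the processed pseudogene that matches Ndufb4, at −0.46 ± 0.20 (adjusted p = 0.194). It was at 4.35, 3.01 and 4.01 CPM in Early and 2.84, 2.91 and 2.49 CPM in Late. Ndufa5, an accessory subunit, was at 35.9, 30.5 and 32.8 CPM in Early and 24.9, 27.8 and 26.9 CPM in Late (−0.32 ± 0.10, adjusted p = 0.0766, DESeq2 adjusted p = 0.0338). It was singled out after its values were seen.

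Complex II had the smallest adjusted p of all members. Sdha was at 225, 209 and 226 CPM in Early and at 251.5, 264 and 266 CPM in Late. The groups did not overlap, and the log2 fold change was 0.24 ± 0.07, or 18.5% higher (adjusted p = 0.0536). It passed with a minimum of 10 counts in every library (adjusted p = 0.0417), without Early-1 (0.0283), without Early-3 (0.0342) and in DESeq2 (0.0234). It missed without Early-2 (0.202), without Late-1 (0.110), without Late-2 (0.211), without Late-3 (0.210), with no filter (0.0935), with the replicate block (0.0971), and with the other scalings run (0.0515 to 0.0724). Sdhb, Sdhd and Sdhc had values of 0.11 ± 0.07, 0.08 ± 0.07 and −0.00 ± 0.08, with adjusted p of 0.362, 0.543 and 0.995. Summed over its 4 genes, complex II stood at 585, 558 and 561 CPM in Early and 594, 632 and 646 CPM in Late, and every Late library was above every Early one.

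In complex III, Uqcrb had the smallest adjusted p, 0.116, at −0.30 ± 0.11, with 59.8, 50.1 and 46.2 CPM in Early and 42.2, 44.8 and 40.2 CPM in Late. In complex IV it was Cox7a2, a small accessory subunit, at −0.22 ± 0.08 (adjusted p = 0.109), with 77.5, 81.9 and 79.6 CPM in Early and 63.3, 70.9 and 70.96 CPM in Late. For both genes every Late library lay below every Early one. Ndufa4 and Ndufa4l2 had values of −0.12 ± 0.10 and 0.15 ± 0.29 (adjusted p = 0.513 and 0.802).

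Without Early-1, 8 nuclear members were called higher and 0 lower, and without Early-3, 1 was called higher and 2 lower, so the direction of the nuclear calls differed with the Early library left out. Over all genes, 8.24% were called higher and 7.19% lower without Early-1, and 4.49% and 4.76% without Early-3. The median was 0.07 in the former and −0.11 in the latter. Markers of other cells moved with the stage, in both directions. With all libraries, 4.31% of all genes were called higher and 4.88% lower. The B16 melanoma markers summed to 1662, 1672 and 1806 CPM in Early and to 766, 1179 and 1202 CPM in Late, with 5 of 7 called lower. NK cell markers fell in 4 of 6 (56.7 to 68.0 CPM summed in Early, 20.3 to 27.9 in Late) and fibroblast markers in 3 of 5 (798 to 876 and 392 to 553). Neutrophil markers fell in 2 of the 3 tested, of 7 listed, and their sums overlapped (73.6 to 87.1 and 64.3 to 79.1). Dendritic, endothelial and erythroid markers fell in 1 of 6, 1 of 4 and 1 of 4 tested. B cell markers rose in 3 of 5 (37.3 to 41.8 and 57.5 to 82.9) and T cell markers in 2 of 6 (128 to 136 and 156 to 188). The part of these markers in the mitochondrial values was not tested.

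Genes that build and serve the chain were followed in lists of their own, beside the 9.78% of all genes called lower and the 11.3% called higher in AMPK-KO. Between AMPK-KO and WT, assembly factors were called lower in 2 of 16 for complex I, 1 of 4 for complex II, 2 of 6 for complex III and 0 of 20 for complex IV, and higher in 2 of the 20 for complex IV only. Ndufaf2, which escorts complex I during assembly, was at 9.73, 10.4 and 8.74 CPM in WT and 6.75, 5.56 and 6.71 CPM in AMPK-KO (−0.60 ± 0.13, adjusted p = 0.00677). Sdhaf3 fell by 0.70 (adjusted p = 0.0143) and Bcs1l, which inserts the iron-sulfur protein into complex III, fell by 0.45 on the log2 scale (adjusted p = 0.00986). Sco1, a copper chaperone of complex IV, was higher at 0.46 ± 0.09 (adjusted p = 0.00478). Ndufa12 is known to replace the assembly factor Ndufaf2 at its site in complex I, and both mRNAs were lower in AMPK-KO.

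The nuclear ATP synthase genes were lower in 3 of 18 and higher in 0. Atpif1, an inhibitor of the ATP synthase, was at 103, 134 and 116 CPM in WT and 75.3, 79.9 and 91.6 CPM in AMPK-KO (−0.52 ± 0.10, adjusted p = 0.00402). Among 21 carriers and other subunits, 2 were lower and 2 higher, led by Coq7, an enzyme of ubiquinone synthesis, at −0.41 ± 0.10 (adjusted p = 0.0187), and Cox7a2l, which takes part in supercomplexes, at 0.33 ± 0.08 (adjusted p = 0.0184). Of 14 TCA cycle genes, 3 were lower, led by Idh2 at −0.51 ± 0.06 (adjusted p = 0.000184), with 125.5, 142 and 127 CPM in WT and 90.6, 95.4 and 90.3 CPM in AMPK-KO.

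Against the same 9.78% lower over all genes, genes for mitochondrial gene expression included 4 of 30 regulators that were lower and 0 that were higher. Slirp, which stabilizes mitochondrial mRNAs, was at 31.0, 46.6 and 39.5 CPM in WT and 20.6, 22.8 and 28.2 CPM in AMPK-KO (−0.71 ± 0.15, adjusted p = 0.00712). Mitochondrial ribosomal proteins were lower in 15 of 78 (19.2%) and higher in 0, with a median of −0.18, led by Mrpl38 at −0.47 ± 0.09 (adjusted p = 0.00347). Their summed CPM of 2247, 2719 and 2492 in WT and 2096, 2167 and 2339 in AMPK-KO had the same order within each group as the nuclear members. Cytosolic ribosomal proteins were lower in 7 of 82 (8.54%), led by Rpl29 (−0.24 ± 0.05, adjusted p = 0.00772). Mitochondrial tRNAs were lower in 4 of 20, led by mt-Tn (−0.78 ± 0.20, adjusted p = 0.0192), mitochondrial rRNAs in 0 of 2 (0 also at an unadjusted p under 0.05 and by DESeq2), and nuclear copies of the mitochondrial genome in 3 of 8, led by Gm28437 (−0.21 ± 0.05, adjusted p = 0.0163).

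Between Late and Early, 4.31% of all genes were called higher and 4.88% lower, and each of these lists held at most 1 call. Sdhaf2, an assembly factor of complex II, was the 1 of 4 called lower, at −0.30 ± 0.08 (adjusted p = 0.0394), and Lyrm7, of complex III, the 1 of 6 called higher, at 1.39 ± 0.31 (adjusted p = 0.0233) from 0.519, 0.995 and 1.051 CPM in Early to 2.21, 2.35 and 2.17 CPM in Late. Cox4i2, an isoform of Cox4i1, rose by 0.64 (1 of 21 carriers and other subunits, adjusted p = 0.0405) and Idh3g rose by 0.31 (1 of 14 TCA cycle genes, adjusted p = 0.0282). Mrpl53 fell by 1.51 (1 of 78 mitochondrial ribosomal proteins, adjusted p = 0.0457), and Gm28438 was the 1 of 8 nuclear copies called. By edgeR, 0 were called among the assembly factors of complexes I and IV, the ATP synthase, the regulators, the cytosolic ribosomal proteins, the tRNAs and the rRNAs. At an unadjusted p under 0.05, 12% of all genes were higher and 12.4% lower. At that limit, 2 of 16 were lower for complex I, and 2 of 19 were higher and 1 lower for complex IV. Of the 18 ATP synthase genes, 2 were higher, and of the 30 regulators, 6 were higher and 3 lower. Of the 82 cytosolic ribosomal proteins, 12 were higher and 1 lower. The rRNAs held 1 of 2 lower and the tRNAs 0 of 21. DESeq2 called 3 of the cytosolic ribosomal proteins and 1 of the regulators higher, beside 7.54% of all genes.

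Nuclear subunit genes are known for promoters with sites of NRF1, GABPA and YY1. RefSeq promoters (GRCm38.p6, 250 bases before to 50 after the start) matched 48 of the 60 nuclear members. On both strands, the NRF1 letters GCGCATGC were in 7 of the 48 (14.6%, and 3.05% of the 27025 genes with a promoter), the GABPA letters CCGGAAGT in 4 (8.33% and 4.31%) and the YY1 letters AAGATGGC in 7 (14.6% and 3.19%). NRF1 matches on opposite strands can overlap each other, and no match overlapped one of another motif. All 7 YY1 matches lay on the strand of the gene, from 22 to 38 bases after the first transcribed base. Members with the NRF1 letters had a median log2 fold change of −0.14 in AMPK-KO against WT and those without −0.19, and in Late against Early the medians were 0.11 and −0.02.

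The 250 bases before the RefSeq start are shown for the called nuclear genes, Ndufa12 (chr10:94198785-94199034, plus strand) and Ndufa4 (chr6:11907451-11907700, minus strand). They are also shown for Cox6a1 (chr5:115348959-115349208, minus strand), the most abundant nuclear member per length in WT. For Ndufa12, GENCODE M21 starts the gene at chr10:94198720, so this window lies inside the gene. Bases before that start were not searched. Capitals mark the NRF1 letters, which Cox6a1 holds on both strands. The called genes hold none of the motifs in their whole windows, which says only that these letters are not there.
Ndufa12: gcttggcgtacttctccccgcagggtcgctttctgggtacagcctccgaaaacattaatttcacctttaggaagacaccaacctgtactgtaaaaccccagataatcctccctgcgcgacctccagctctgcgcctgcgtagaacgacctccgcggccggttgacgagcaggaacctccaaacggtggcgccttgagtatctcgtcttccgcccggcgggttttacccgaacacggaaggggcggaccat
Ndufa4: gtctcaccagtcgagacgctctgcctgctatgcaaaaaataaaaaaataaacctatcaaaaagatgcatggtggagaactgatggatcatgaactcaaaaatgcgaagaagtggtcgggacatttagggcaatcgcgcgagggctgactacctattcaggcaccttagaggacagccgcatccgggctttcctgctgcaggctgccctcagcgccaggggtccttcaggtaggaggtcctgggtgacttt
Cox6a1: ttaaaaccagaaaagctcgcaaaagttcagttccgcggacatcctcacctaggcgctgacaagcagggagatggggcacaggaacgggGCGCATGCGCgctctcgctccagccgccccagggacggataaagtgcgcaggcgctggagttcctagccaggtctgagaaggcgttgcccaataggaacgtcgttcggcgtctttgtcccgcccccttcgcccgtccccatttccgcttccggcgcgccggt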

How the data were processed

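RNA of sorted TAMs was sequenced on an Illumina instrument. The authors mapped reads with HISAT2 and deposited raw featureCounts counts per gene, in 1 table per comparison. Builds mm10 and GRCm38 come from the submitters' processing notes, which also name FastQC and DESeq2. The tool versions and the handling of strand and multiply mapped reads are not given in the sources used here. All columns were assigned to samples by their names.

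From the deposited counts, each table was fitted on its own with the edgeR 4.0.16 quasi-likelihood test in R 4.3.3 (filterByExpr, TMM, no covariates), with Benjamini-Hochberg adjustment over all genes tested and calls at an adjusted p under 0.05. CPM are TMM-scaled, except in the rule and per kilobase, where library totals were used and lengths are those of the GENCODE M21 principal transcript. Copies were found with blastn 2.17.0. DESeq2 1.42.0 and the other alternatives were run on the same counts. The fits were tested on simulated data. Of the identifiers, 54349 matched GENCODE M21 with their version, all 73 members included.

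The members, the lists and the tests were chosen with earlier results of these data known. Genes named were the 13 mitochondrial mRNAs, the complex II genes, Ndufa4, Ndufa4l2 and Prkaa1, the members at the CPM limit, the extreme nuclear log2 fold changes, and, by complex and comparison, up to 2 called members per direction with the smallest adjusted p (if none was called, the smallest), and from each other list the called gene with the smallest adjusted p per direction. Cox6a1, Cox4i1, Lyz2 and the copies were named after their values were seen. Dixon's outlier test was not applied, since groups held 3 libraries.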

Additional observations from a re-analysis of the deposited data

How the results depend on the processing

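The direction of the mitochondrial medians held under every alternative run, and the nuclear median of AMPK-KO against WT stayed below 0. Counts of calls moved more. For nuclear members lower in AMPK-KO, the 2 calls became 9 with DESeq2, 1 without a filter beyond 1 count, and 1 to 24 with a library left out. The 5 mitochondrial calls became 1 without that filter and 0 to 10 with a library left out. Of all genes, 9.7% were called lower with DESeq2, 5.08% without that filter and 5.87 to 10.6% with a library left out. Between Late and Early, with 0 calls by edgeR, DESeq2 called 2 nuclear members higher, 1 nuclear member lower and 3 mitochondrial mRNAs lower, and a minimum of 10 counts in every library gave 1 nuclear member higher. Leaving out a library gave 0 to 8 nuclear members higher, 0 to 2 lower and 0 to 12 mitochondrial mRNAs lower. Over all genes, DESeq2 called 7.54% higher and 8.12% lower, and the minimum of 10 counts gave 5.65% higher. With a library left out, 1.54 to 8.24% of all genes were called higher and 2.01 to 7.19% lower. The cause was not tested. RLE and upper-quartile factors, and totals over nuclear genes, changed no such count by over 1.5 times. Adding the counts of pseudogene copies to their member, an alternative chosen after seeing the data, changed none of these counts. For mt-Co2, mt-Co3, mt-Nd3, mt-Nd4l and mt-Atp6, each copy held 43.1 to 54.0% of the pair's counts. Adding such a copy could hardly change the fold change, so for these genes this alternative tests little.

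Over all genes tested, deviations of same-numbered samples from their group means correlated at −0.004 to 0.04. This does not settle whether replicate numbers paired the samples for the members. Of the 60 nuclear members, WT-1 was lowest for 57 and AMPK-KO-1 for 48, but WT-2 was highest for 57 and AMPK-KO-3 for 54. With the replicate block, 15 nuclear and 8 mitochondrial members were lower in AMPK-KO, and 4 mitochondrial mRNAs in Late. Over all genes, this fit called 1833 of 17532 lower in AMPK-KO and 743 of 17630 lower in Late.

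With 3 libraries per group, small differences rest on few samples, and leaving one out compares 2 with 3. Without the filter, 27518 genes in place of 17532 entered the adjustment in AMPK-KO and WT. For the 7 of 13 mitochondrial members that matched a nuclear copy, how shared reads were counted is not known, and more depth would not settle it.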
